A study of Homo sapiens with 12 samples.

Results

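Long cassette exons are exons of over 300 nt that a transcript can either include or skip. They were taken by length alone from the tables of skipped exon events in A549 cells, a human lung adenocarcinoma line, and comprised 2691 of 54723 exons, in 3533 of 79782 events (an event is an exon with a given pair of neighbouring exons). All cells had been infected with a lentivirus and selected with puromycin. They carried either a non-targeting shRNA, labelled shControl, or one that depletes RNF113A, a spliceosome subunit, labelled shRNF113A, and were left untreated or exposed to Cisplatin, a drug that crosslinks DNA, which the labels give as 25 µg/ml for 20 h. The study's methods give 25 µM for other Cisplatin treatments of A549 cells and state no dose for the RNA sequencing. Each of the 4 groups had 3 libraries, from separate biological samples per the study's methods, so that there were 12 in all, and the labels name a single shRNA against RNF113A. The deposited splicing tables cover 4 comparisons: depletion in untreated cells, depletion in Cisplatin-treated cells, Cisplatin in control cells and Cisplatin in depleted cells. Within a group these tables do not say which library comes first, so libraries are called a, b and c.

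Most internal human exons are short, and the splicing machinery usually recognises them by pairing the splice sites at both ends across the exon. Long internal exons are the exception. They include constitutive coding exons of large proteins as well as poison exons. A poison exon carries stop codons, and its inclusion makes the mRNA a target of nonsense-mediated decay, the pathway that degrades mRNAs with a premature stop. Several SR proteins, a family of exon-binding splicing activators, control their own level through such exons.

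The splice sites of the exons that recurred below are given from GRCh37, the build of the tables. Lower case marks intron bases and capitals mark the exon bases next to them. The 3′ splice sites, which end in the AG before the exon, are shown because their pyrimidine-rich stretch differs between these exons.

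SRSF3: aaaaatgaaccccgttacagAGT
SRSF7: acctggtcaaaacctttcagGTT
TRA2A: aatgttctttttccattaagGTT
ACIN1: cccgtaaaactttgtccaagTAC
SNRNP70: tgttcttattgtcactgcagCCA
SNRPN: tttatttttatttttttcagACG
WNK1 exon of 459 nt: gtttttctttaccttcccagCTT
CSNK1D: tagaatctgctttttcatagGTT
DTYMK: tctctcttttctttttttagACA
PXN: tcccctccccctccccctagATC

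The 5′ splice sites of the same exons are shown in the same order, beginning with the last 3 exon bases.

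SRSF3: CTAgtaagt
SRSF7: AAGgtttat
TRA2A exon of 312 nt: AATgtatgg
TRA2A exon of 301 nt: TAGgttaag
ACIN1: CAGgtgtga
SNRNP70: TCGgtaaat
SNRPN: CAGgtcaga
WNK1 exon of 459 nt: CAGgtattg
CSNK1D: TTGgtaggt
DTYMK: CAGgtgcgt
PXN: CAGgcaggc

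The PXN exon ends in a gc in place of the usual gt, as did 34 of the 2691 long exons. The 5′ splice site GTAAGT, which pairs in full with U1 RNA, read on the strand of the gene, followed 10.8% of long exons and 13.6% of the 52032 exons of 300 nt or shorter. The median share of pyrimidines in the intron bases printed before the AG was 77.8% for both lengths. AG before and GT after the exon were found for 98.6% of either set.

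Long exons differed from shorter ones in what the reference annotation (Gencode v44 on GRCh37) lists for them, as a description with no test. The median length was 499 nt against 116 nt, and the median GC content 52.2% against 48.2%. A stop codon stood in all 3 reading frames of 43.8% of long exons and of 8.39% of shorter ones, and 37.8% against 40.3% had a length that is a multiple of 3. A protein-coding transcript held 68.6% of long and 88.5% of shorter exons. Transcripts annotated as targets of nonsense-mediated decay, with no coding one, held 10.9% and 6.45%. Transcripts annotated as retaining an intron, with neither of the other classes, held 13.8% and 0.909%, and 18.4% of long exons but 1.69% of shorter ones overlapped an intron that the deposited retained intron table measures.

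**Figure D1:**
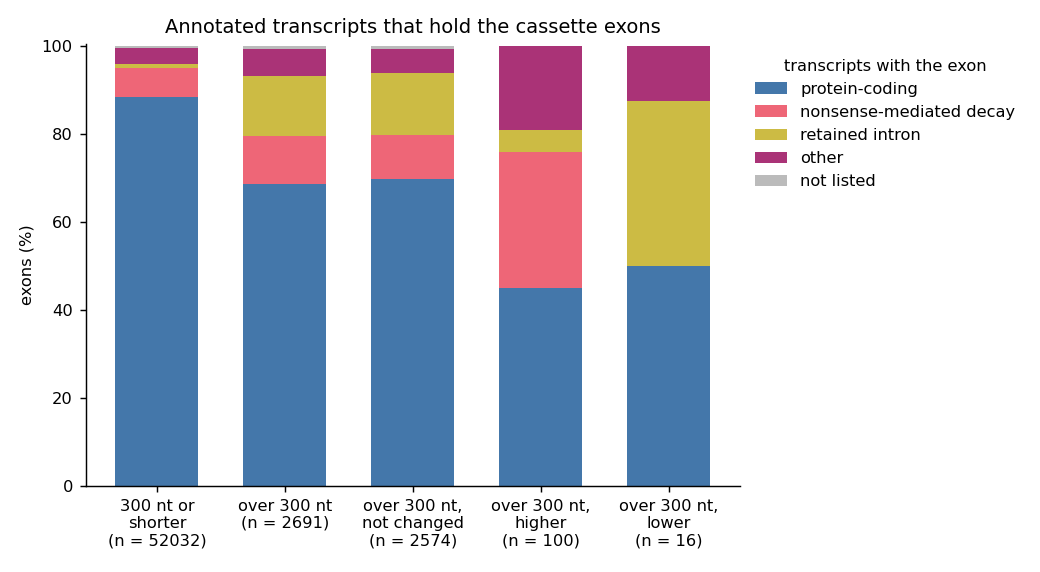
Share of cassette exons, in percent, by the annotated transcripts that hold them, for exons of 300 nt or shorter, all exons over 300 nt, and exons over 300 nt that were not changed, changed only to higher or only to lower inclusion in any comparison. Exons with higher inclusion have the largest share of transcripts annotated for nonsense-mediated decay (31.0%), and exons with lower inclusion the largest share of retained intron transcripts (37.5%).

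The inclusion level of an exon is the share of transcripts that keep it. It was recomputed from the inclusion and skipping reads of each library, each divided by the length of its form, which for a long exon is the exon length plus 72 nt for inclusion and 72 nt for skipping. The inclusion reads of a long exon lie mostly within the exon, so that any RNA covering this stretch counts as inclusion, also unspliced RNA. In bulk RNA a change in inclusion within each cell and a change in the mix of cells cannot be told apart. Over the 1942 long events with at least 20 reads in each of the 12 libraries, the median inclusion level was 98.80% to 99.28% per library. Between 75.8% and 79.0% of these events lay above 90% and between 5.61% and 7.78% below 10%. The 3 libraries of Cisplatin-treated depleted cells had the lowest shares below 10% (5.61% to 6.18%, against 6.59% to 7.78% in the other 9), so the groups did not overlap in this value.

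The series held 33859097 to 56071514 read pairs per library, of which 26220526 to 45721152 were counted for a gene. Cisplatin-treated depleted cells had the 3 smallest libraries, and 21.8% to 22.6% of their read pairs were not counted for any gene, against 14% to 18.9% elsewhere. The pairs not counted include unmapped pairs, pairs mapped to several places, pairs outside the counted exons and pairs on overlapping genes. Their part in the results below was not tested. RNF113A mRNA, the target, differed in depleted from control cells by −0.31 on the log2 scale without Cisplatin (standard error 0.09, adjusted p = 0.0247) and by −0.14 with it (standard error 0.09, adjusted p = 0.233). All 8 epithelial markers were found in every group, with a summed level of 10463 to 28855 CPM, read counts scaled to library size, and 6 markers of blood cells, endothelium and fibroblasts, of which 1 or 2 were at 0, summed to 4.35 to 35.1. The epithelial sum was lower with Cisplatin (10463 to 14730 CPM, against 19658 to 28855 without), and EPCAM had a mean of 10.3 CPM in untreated control and 92.4 CPM in untreated depleted cells, and AKR1C1 514 and 157 CPM. The part of these shifts in the results was not tested.

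Inclusion against skipping reads was tested by edgeR's quasi-likelihood test with Benjamini-Hochberg adjustment over all cassette exon events with at least 20 reads in each of the 6 libraries compared. An event is described as changed at an adjusted p under 0.05, and as a large change where its mean inclusion levels also lay at least 20 percentage points apart. Long events passing the read filter numbered 2530 of 55585 for depletion in untreated cells, 2562 of 55338 for depletion in Cisplatin-treated cells, 2513 of 54944 for Cisplatin in control cells and 2561 of 55799 for Cisplatin in depleted cells. They carried more reads than the others, with medians of 2753 to 3138 summed over 6 libraries against 1261 to 1466, and the part of this depth in the shares below was not tested. The comparisons share libraries in pairs, so their counts are not independent.

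Depletion in untreated cells changed 7 long events, 6 to higher and 1 to lower inclusion. This is 0.277% of the long events, against 0.106% of all events tested (0.0720% higher and 0.0342% lower). No long event had a large change (all events 0.0198%), but 1 did without library a of untreated control cells. An unadjusted p under 0.05 was found for 132 of 2530 long and 1990 of 53055 shorter events. The count of changed long events was 3 without library c of untreated control cells, 3 without library a and 2 without library b of untreated depleted cells. Without library b of untreated control cells it was 10, of which 6 rose and 4 fell. It was 0 by DESeq2 and by limma voom.

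Depletion in Cisplatin-treated cells changed 54 long events, 46 to higher and 8 to lower inclusion, which is 2.11% of the long events against 0.951% of all (0.520% higher and 0.430% lower). With 1 scale per library for both kinds of reads, in place of separate scales, 25 rose and 11 fell, so the share of rises was 69.4% instead of 85.2%. Separate scaling put the median log2 odds of inclusion over all events at −0.15 and a single scale at −0.39, limma voom gave 12 rises and 14 falls, and DESeq2 9 rises and 2 falls. Of the shorter exons 242 events rose and 230 fell. Large changes numbered 4 (all events 0.0614%), all to higher inclusion. Without library c of Cisplatin-treated depleted cells, 20 events changed and none of them by 20 points, and without library a of that group 35 changed. Large changes numbered 2 without library b and 7 without library c of Cisplatin-treated control cells.

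Cisplatin in control cells changed 23 long events, 19 to higher and 4 to lower inclusion, which is 0.915% against 0.442% of all events (0.306% higher and 0.137% lower). Large changes numbered 3 (all events 0.0601%). The count of changed events lay between 8 and 15 with any library left out, and was 4 by limma voom and 1 by DESeq2, all of them rises.

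Cisplatin in depleted cells changed 99 long events, the highest count of the 4 comparisons, of which 88 rose and 11 fell. This is 3.87% of the long events against 2.21% of all (1.46% higher and 0.746% lower). With 1 scale per library 69 rose and 11 fell, and the median log2 odds over all events was −0.05 in place of 0.11. Limma voom gave 41 rises and 20 falls, so the share of rises was 67.2% instead of 88.9%, and DESeq2 gave 29 rises and 3 falls. Large changes numbered 15, 13 rises and 2 falls (all events 0.267%), and 9 without library c of Cisplatin-treated depleted cells. Without library a or library b of untreated depleted cells 60 and 63 events changed. Of the shorter exons 729 events rose and 405 fell.

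**Figure D2:**
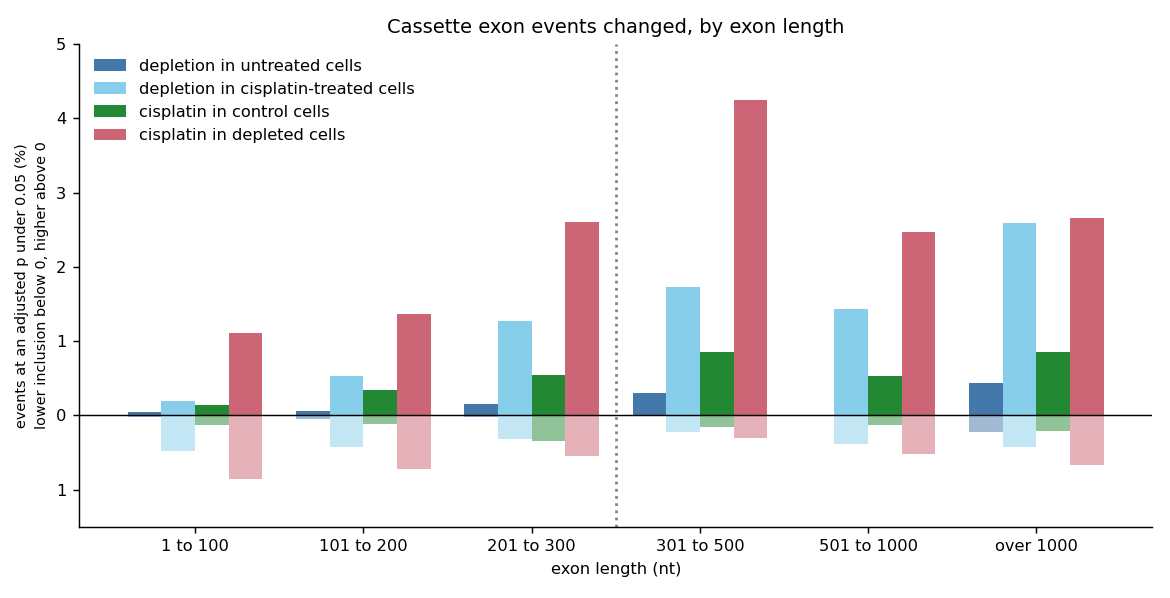
Percent of cassette exon events at an adjusted p under 0.05 by exon length (nt), with higher inclusion above 0 and lower inclusion below 0, for the 4 comparisons. The dotted line marks 300 nt, and with Cisplatin in depleted cells 1.11% of events of up to 100 nt rose against 4.25% of events of 301 to 500 nt.

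The share of rises did not climb evenly with length. With Cisplatin in depleted cells 1.36% of events of over 100 and up to 200 nt rose, 2.60% of those of 201 to 300 nt, 4.25% of those of 301 to 500 nt, 2.47% of those of 501 to 1000 nt and 2.66% of the longest. In the same comparison falls took 0.856% of events of up to 100 nt and 0.298%, 0.520% and 0.665% of events of 301 to 500 nt, 501 to 1000 nt and over 1000 nt. Just inside the limit of 300 nt, 16 exons of 301 nt gave 3 changed events in 53 tests, and just outside it, 15 exons of 300 nt gave 2 in 45 tests.

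Rises were found mainly among long exons that were rarely included. The level of the first group sorts events by a value that is part of the difference, so these shares are descriptions. Depletion in Cisplatin-treated cells raised 34 and lowered 0 of the 141 long events below 10% inclusion in Cisplatin-treated control cells, so that 24.1% changed, against 4.14% of the shorter events in that range. Cisplatin in depleted cells raised 54 of 148 such events, and 36.5% against 10.5% changed. Above 90% inclusion 0.375% and 0.621% of the long events changed, 8 of 8 and 10 of 13 to lower inclusion.

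Over all comparisons 117 long exons changed, 100 of them only to higher inclusion, 16 only to lower inclusion and 1, in ACIN1, in both directions. Of the 100 exons with higher inclusion 74 had stop codons in all 3 frames, 31 lay in transcripts for nonsense-mediated decay with no coding one, and 6 overlapped a measured retained intron. Of the 16 exons with lower inclusion 11 had stop codons in all 3 frames, none was in the decay class and 8 overlapped a measured retained intron. Stop codons stood in all 3 frames of 42.4% of the 2574 long exons that did not change. Of the unchanged exons 10.2% were in the decay class and 18.7% overlapped a measured retained intron. The exons that rose had a median GC content of 53.2% and a median of 1456 nt of downstream intron, against 52.2% and 2302 nt for the 2574 that did not change. The median share of pyrimidines before the 3′ splice site was 72.2% for the exons that rose and 77.8% for the others.

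Splicing genes held several of the exons that changed in more than 1 comparison. SR proteins and the kinases that act on them had 18 to 25 long events tested per comparison. Of these 1 rose with depletion in untreated cells, 4 rose and 1 fell with depletion in Cisplatin-treated cells, 4 rose with Cisplatin in control cells, and 5 rose and 1 fell with Cisplatin in depleted cells. These are 5.56%, 20.0%, 19% and 25.0% of the events of the list, against 0.277%, 2.11%, 0.915% and 3.87% of all long events. The counts with Cisplatin take the 2 overlapping TRA2A events described below as 2. The median log2 odds of the list were 0.50, 0.22, 0.36 and 0.47 in this order, against 0.05, 0.18, 0.20 and 0.44 for all long events. For depletion in Cisplatin-treated cells the median difference had the other sign, with −0.148 points for the list and −0.0566 points for all long events. By limma voom 0, 2, 2 and 5 of these events passed an adjusted p of 0.05, and by DESeq2 0, 0, 1 and 2.

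SRSF3 encodes the smallest SR protein. Its exon of 456 nt (chr6:36567598-36568053, plus strand) lies in a transcript annotated for nonsense-mediated decay and has stops in all 3 frames. Its inclusion was 1.67%, 1.97% and 1.41% in untreated control cells and 4.86%, 4.47% and 3.50% in untreated depleted cells. In Cisplatin-treated control cells it was 11.5%, 27.0% and 15.2%, and in Cisplatin-treated depleted cells 13.8%, 13.7% and 10.6%. The untreated groups did not overlap with each other or with the treated groups, while the treated groups overlapped. The log2 odds of inclusion rose by 3.54 (standard error 0.26, adjusted p = 2.9e-36) with Cisplatin in control cells, by 1.89 (standard error 0.24, adjusted p = 1.4e-12) with Cisplatin in depleted cells and by 1.45 (standard error 0.24, adjusted p = 1.4e-05) with depletion in untreated cells. With depletion in Cisplatin-treated cells they differed by −0.23 (standard error 0.25, adjusted p = 0.684). SRSF3 mRNA fell with Cisplatin, by a log2 fold change of −0.56 (adjusted p = 1.6e-04) in control and −0.86 (adjusted p = 4.2e-06) in depleted cells.

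SRSF7, an SR protein close to SRSF3, has an exon of 449 nt (chr2:38976040-38976488, minus strand) of the same annotated class. Its inclusion was 7.18%, 5.61% and 6.26% in untreated control cells and 9.80%, 11.1% and 9.46% in untreated depleted cells. With Cisplatin it was 13.4%, 16.2% and 15.0% in control cells and 23%, 24.3% and 24.3% in depleted cells. No pair of groups overlapped, and the order was untreated control, untreated depleted, treated control, treated depleted. The log2 odds rose by 1.32 (standard error 0.25, adjusted p = 3.0e-04) with Cisplatin in control cells, by 1.67 (standard error 0.24, adjusted p = 1.1e-09) with Cisplatin in depleted cells and by 1.12 (standard error 0.25, adjusted p = 0.00246) with depletion in Cisplatin-treated cells. This last call was lost with 1 scale per library. With depletion in untreated cells the difference was 0.80 (standard error 0.24, adjusted p = 0.274). The exon overlaps a measured retained intron.

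TRA2A encodes an SR-like activator of exon inclusion. Its exon of 312 nt (chr7:23561740-23562051, minus strand) shares its 3′ splice site and nearly all its reads with a version of 301 nt, so the pair is described as 1. Inclusion was 8.38%, 6.90% and 5.69% in untreated control and 9.94%, 8.06% and 7.13% in untreated depleted cells, which overlapped. With Cisplatin it was 16.4%, 20.9% and 19.8% in control and 16.1%, 20.2% and 19.1% in depleted cells, which overlapped as well. Cisplatin raised it in both kinds of cells, by log2 odds of 1.60 (standard error 0.29, adjusted p = 9.2e-05) and 1.50 (standard error 0.30, adjusted p = 9.7e-05), and the adjusted p for depletion was 0.698 without and 0.695 with the drug. TRA2A mRNA differed by log2 fold changes of 0.03 and −0.07 with Cisplatin (adjusted p = 0.701 and 0.360). Either version of the exon overlaps a measured retained intron.

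ACIN1 encodes acinus, a nuclear protein linked to splicing and to apoptosis. Its exon of 1358 nt (chr14:23536523-23537880, minus strand) was measured against different neighbouring exons. Against the nearer one its inclusion was 15.8%, 15.6% and 18.1% in untreated control and 24.4%, 28.3% and 24.1% in untreated depleted cells. With Cisplatin it was 18.8%, 17.8% and 26.2% in control and 36.6%, 38.9% and 40.6% in depleted cells, above every library of the other groups. Depletion raised it in Cisplatin-treated cells by log2 odds of 1.54 (standard error 0.27, adjusted p = 5.5e-06). Cisplatin raised it in depleted cells by 1.07 (standard error 0.26, adjusted p = 0.00453), and in control cells the difference was 0.36 (standard error 0.27, adjusted p = 0.714).

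Against a farther neighbouring exon the same ACIN1 exon had 0 to 2 skipping reads in the 9 libraries outside Cisplatin-treated depleted cells and 14, 10 and 22 within them. Its inclusion was therefore lower there, at 91.5%, 94.1% and 87.0% (adjusted p = 0.0224 for depletion and 0.0117 for Cisplatin). The exon thus counts among both rises and falls, and its inclusion reads are nearly the same in both events. ACIN1 mRNA rose by 0.53 (adjusted p = 0.00513) and 0.81 (adjusted p = 1.2e-04) in these comparisons.

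SREK1, an SR-related splicing regulator, and CLK4, a kinase that phosphorylates SR proteins, changed with depletion in Cisplatin-treated cells. The SREK1 exon of 2868 nt (chr5:65451893-65454760) went from 7.26%, 4.35% and 10.3% to 12%, 16.3% and 13.1%, without overlap (log2 odds 1.36, standard error 0.32, adjusted p = 0.00395). The CLK4 exon of 836 nt (chr5:178046839-178047674) went from 14.3%, 5.33% and 19.9% to 24.8%, 24.9% and 20.1% (log2 odds 1.37, standard error 0.38, adjusted p = 0.0352), with the nearest libraries of the groups hardly apart. With 1 scale per library neither passed.

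**Figure D3:**
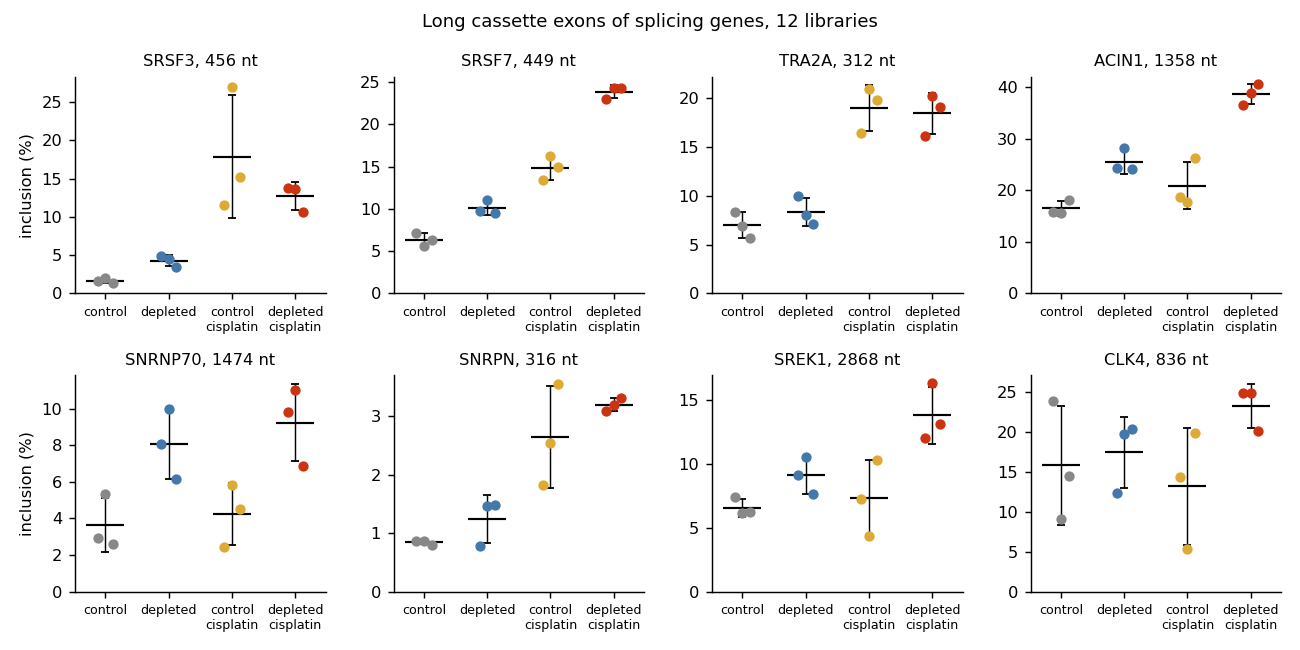
Inclusion level in percent of long exons of 8 splicing genes in each of the 12 libraries (points), with the mean (bar) and SD of each group of 3 libraries. SRSF3 and TRA2A are higher in both groups with Cisplatin, SNRNP70 is higher in both depleted groups, and ACIN1 and SRSF7 are highest in Cisplatin-treated depleted cells.

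Spliceosome subunits had 14 to 26 long events tested, and 1 rose in each comparison. This is 7.14%, 3.85%, 6.67% and 4.17% of them in the order above, against 0.277%, 2.11%, 0.915% and 3.87% of all long events. Each share of the list rests on 1 event and is no result about the list. With depletion the subunit was SNRNP70, the U1-70K protein of the U1 particle that binds 5′ splice sites. Its exon of 1474 nt (chr19:49605371-49606844, plus strand) belongs to the decay class. Its inclusion was 2.94%, 5.33% and 2.61% in untreated control and 8.08%, 10.0% and 6.18% in untreated depleted cells, and 2.43%, 5.82% and 4.49% against 9.80%, 11% and 6.89% with Cisplatin. Control and depleted libraries did not overlap at either level of the drug. The log2 odds rose by 1.34 (standard error 0.23, adjusted p = 6.5e-05) and 1.53 (standard error 0.24, adjusted p = 3.5e-07), while the adjusted p for Cisplatin was 0.736 in control and 0.628 in depleted cells. SNRNP70 mRNA differed by log2 fold changes of 0.04 (adjusted p = 0.839) and 0.26 (adjusted p = 0.0976) with depletion.

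With Cisplatin the subunit was SNRPN, an Sm core protein. Its exon of 316 nt (chr15:25219789-25220104) rose from 0.876%, 0.873% and 0.803% to 1.83%, 2.54% and 3.56% in control cells, and from 0.776%, 1.47% and 1.49% to 3.09%, 3.19% and 3.32% in depleted cells. The groups did not overlap, and the log2 odds rose by 1.58 (standard error 0.37, adjusted p = 0.00898) and 1.59 (standard error 0.33, adjusted p = 2.2e-04). Neither DESeq2 nor limma voom called SNRPN. The gene counts of SNRPN had group means of 0 to 0.0103 CPM, although its event held 256 to 552 reads per library. No level of SNRPN mRNA is therefore given.

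The hnRNP proteins and other exon regulators had 26 to 31 long events tested, none of which rose. As 0.237% to 3.44% of all long events rose, a count of 0 in a list of this size is near that share. None changed with depletion in untreated cells or Cisplatin in control cells by edgeR, DESeq2 or limma voom (1 and 2 at an unadjusted p under 0.05). Falls were found in HNRNPH3 alone, an RNA-binding protein of the hnRNP H family, with 1 event upon depletion in Cisplatin-treated cells and 2 upon Cisplatin in depleted cells. These are 3.23% and 6.90% of the list, against 2.11% and 3.87% of all long events. They are events of 1 exon and no result about the list. The HNRNPH3 exon of 1489 nt (chr10:70096956-70098444) overlaps a measured retained intron. No skipping read was counted in the 6 libraries of Cisplatin-treated control and untreated depleted cells, whose 2255 to 3298 inclusion reads would give inclusion levels of 97.2% to 98.1% with 3 skipping reads. In Cisplatin-treated depleted cells 6, 6 and 8 skipping reads gave 93.0%, 93.5% and 88.8%. The adjusted p was 0.00124 for depletion and 1.9e-04 for Cisplatin. The change thus rests on these few skipping reads. HNRNPH3 mRNA fell with Cisplatin in depleted cells by −0.59 (adjusted p = 5.3e-05).

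DNA repair and damage signalling genes, which answer the lesions that Cisplatin makes, had 44 to 48 long events tested, and none changed by edgeR, DESeq2 or limma voom. An unadjusted p under 0.05 was found for 0, 4, 2 and 2 of them in the order of comparisons above. The same holds for nonsense-mediated decay factors (3 to 5 events), chromatin regulators (52 to 65) and apoptosis and p53 genes (12 to 16), none of which changed, with 0 to 3 events per comparison at an unadjusted p under 0.05. As 0.277% to 3.87% of all long events changed, lists of these sizes would hold few changed events at the same share, and their counts of 0 are near it. Of the 50 to 54 events in mitosis and centrosome genes SMC4 rose with depletion in Cisplatin-treated cells, and SMC4 and ECT2 with Cisplatin in depleted cells. These are 1.89% and 3.92%, against 2.11% and 3.87% of all long events. Of the 67 to 83 events in zinc finger genes ZNF707 rose with Cisplatin in depleted cells, or 1.49% against 3.87%. Of the 37 to 45 events in cytoskeleton and large scaffold genes EPB41L1, PLEC and ANK1 changed, as described below. With depletion in untreated cells this is 1 event (2.22% against 0.277%), and in Cisplatin-treated cells 1 of 40 (all long events 2.11%). With Cisplatin in depleted cells it is 2 events (5.41% against 3.87%). Such shares rest on 1 or 2 events and are no result about these lists.

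Single exons were named by a rule, the largest changes of mean inclusion, for the event of each exon with the most reads, among changed events whose groups of 3 libraries did not overlap, which held for 8.89% of all events with depletion in untreated cells, 11.8% with depletion in Cisplatin-treated cells, 10.3% with Cisplatin in control cells and 14.1% with Cisplatin in depleted cells. Those of splicing genes are given above.

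Depletion in untreated cells raised the exon of 411 nt in EPB41L1 (chr20:34797410-34797820), a protein that ties membranes to the actin cytoskeleton, from 69.9%, 52.0% and 64.3% to 78.7%, 82.1% and 80.7%. The log2 odds rose by 1.37 (standard error 0.31, adjusted p = 0.0171), a call that 1 of 6 fits with a library left out kept. The exon of 334 nt in BTBD2 (chr19:2013546-2013879), of the decay class, rose from 3.32%, 3.04% and 4.53% to 16.4%, 16.0% and 15.7% (log2 odds 2.42, standard error 0.40, adjusted p = 1.8e-05). The BTBD2 groups lay far apart, and the exon also rose with depletion in Cisplatin-treated cells, from 3.38%, 3.38% and 4.97% to 9.47%, 10.2% and 15.5% (log2 odds 1.94, adjusted p = 0.0132).

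NDUFV1, a subunit of respiratory complex I, has an exon of 318 nt (chr11:67374770-67375087) that rose from 5.19%, 2.34% and 4.49% to 8.36%, 9.08% and 7.77% with depletion (log2 odds 1.26, adjusted p = 0.00592). With Cisplatin it was 5.05%, 4.22% and 10.5% in control and 19.7%, 16.8% and 19.5% in depleted cells, and the log2 odds rose by 2.07 (adjusted p = 1.2e-10) with depletion. The groups did not overlap in either case. The exon of 1239 nt in WNK1 (chr12:977032-978270), a kinase that regulates ion transport, rose from 2.07%, 2.04% and 1.10% to 4.86%, 4.84% and 6.44% (log2 odds 1.72, adjusted p = 0.00302). The exon of 2400 nt in RTN4 (chr2:55252222-55254621), an endoplasmic reticulum protein, was the only fall, from 0.830%, 0.603% and 0.622% to 0.214%, 0.188% and 0.290% (log2 odds −1.53, adjusted p = 0.00163), while RTN4 mRNA fell by −0.43 (adjusted p = 0.00113). Of the 7 calls BTBD2 and SRSF3 were kept with any of the 6 libraries left out.

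Depletion in Cisplatin-treated cells had its 4 large changes in DTYMK, PXN, D2HGDH and C17orf62. In DTYMK, which encodes thymidylate kinase, an exon of 415 nt (chr2:242621334-242621748) of the decay class rose from 14.6%, 13.3% and 26.0% to 32.2%, 46.6% and 62.1%. In PXN, which encodes the focal adhesion protein paxillin, an exon of 844 nt (chr12:120654076-120654919) with the gc splice site given above rose from 27.9%, 17.6% and 31.8% to 47.1%, 48.8% and 55.7%. The libraries of both exons differed widely within a group, without overlap between groups. The log2 odds rose by 2.22 (standard error 0.44, adjusted p = 1.6e-04) for DTYMK and by 1.83 (standard error 0.43, adjusted p = 0.00395) for PXN. Both rest on few reads, 98 to 145 and 119 to 368 per library.

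In D2HGDH, a mitochondrial dehydrogenase of D-2-hydroxyglutarate, an exon of 1065 nt (chr2:242688280-242689344) rose from 9.20%, 5.55% and 12% to 24.8%, 31.3% and 36.1% (log2 odds 2.45, standard error 0.43, adjusted p = 1.0e-05). In C17orf62 an exon of 526 nt (chr17:80407307-80407832) rose from 19.9%, 16.9% and 19% to 35.9%, 34.1% and 46.1% (log2 odds 1.72, standard error 0.34, adjusted p = 1.3e-04). D2HGDH was the one of the 4 kept with any library left out. In untreated cells the D2HGDH and C17orf62 exons stood at means of 6.23% and 18.7% in control and 12.1% and 20.0% in depleted cells, with an adjusted p of 0.698 and 0.710.

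Smaller rises upon depletion in Cisplatin-treated cells were found in TSSC4, which takes part in the assembly of the U5 particle of the spliceosome, SMC4, a condensin subunit, CSNK1D, which encodes casein kinase 1 delta, PLEC, which encodes the cytoskeletal linker plectin, and SLC37A4, a glucose-6-phosphate transporter. The CSNK1D exon of 482 nt (chr17:80207574-80208055) went from 7.17%, 6.16% and 12% to 22.4%, 18.7% and 25.1% (log2 odds 1.93, standard error 0.29, adjusted p = 4.0e-08). The SMC4 exon of 320 nt (chr3:160130318-160130637) went from 8.19%, 4.72% and 8.90% to 28%, 20.0% and 24.9% (log2 odds 2.28, standard error 0.39, adjusted p = 3.0e-06). Neither pair of groups overlapped. The CSNK1D and SMC4 exons stood at means of 9.39% and 7.08% in untreated control and 10.5% and 10.3% in untreated depleted cells. The CSNK1D call was kept by DESeq2, by limma voom, with 1 scale per library and with each library left out.

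The TSSC4 exon of 309 nt (chr11:2423069-2423377) rose by 18.5 points, and the SLC37A4 exon of 504 nt (chr11:118900942-118901445) by 12.8 points (adjusted p = 2.8e-05 and 0.00123). PLEC rose by 15.9 points (adjusted p = 0.00936), a call lost with 1 scale per library and kept in 1 of 6 fits with a library left out. Falls in this comparison were small or rested on few skipping reads. The exon of 363 nt in RWDD2B (chr21:30380082-30380444) went from 96.3%, 97.2% and 99.4% to 90.6%, 83.7% and 77.3%, with 5, 4 and 1 skipping reads against 8, 16 and 21 (adjusted p = 0.00276). The exon of 344 nt in MTERFD1, a mitochondrial transcription factor, fell from a mean of 98.0% to 88.5% (adjusted p = 0.0476), which was kept in none of the fits with a library left out. The exon of 571 nt in EIF4G2, a translation initiation factor, had 0 skipping reads in control and 4, 2 and 5 in depleted cells (adjusted p = 0.0333), where 3 skipping reads would put the control libraries at 99.7% to 99.8%. Of the 19 named calls of this comparison 7 were kept with any library left out, in D2HGDH, TSSC4, ACIN1, SMC4, CSNK1D, HNRNPH3 and SNRNP70.

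**Figure D4:**
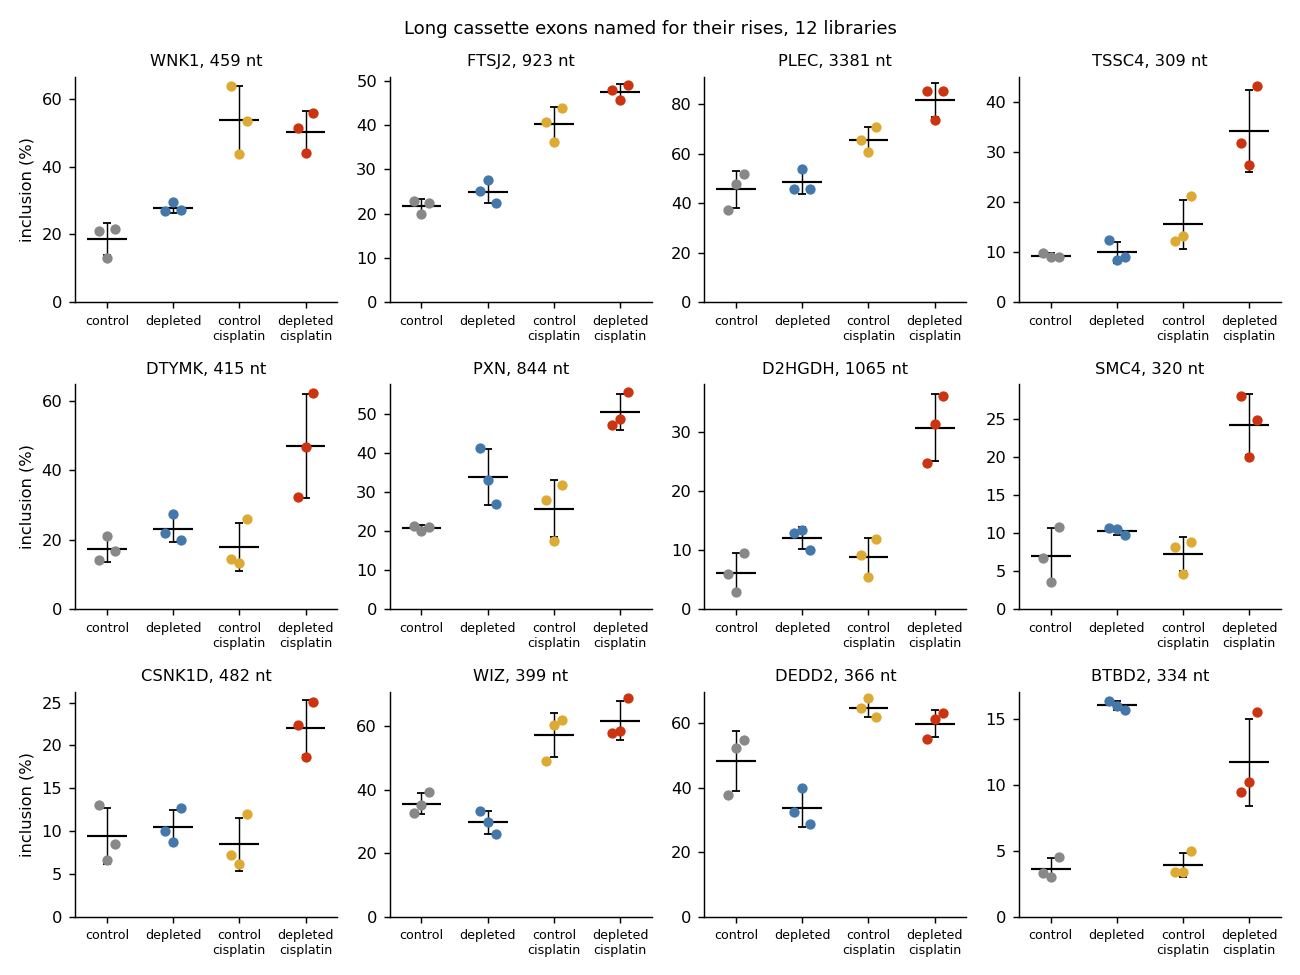
Inclusion level in percent of 12 long exons named for their rises in each of the 12 libraries (points), with the mean (bar) and SD of each group of 3 libraries. DTYMK, D2HGDH, SMC4 and CSNK1D are high in Cisplatin-treated depleted cells alone, WNK1 and FTSJ2 in both groups with Cisplatin, and BTBD2 in both depleted groups.

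Cisplatin in control cells had its large changes in WNK1 and VCAN. The WNK1 exon of 459 nt (chr12:988739-989197, plus strand), which a protein-coding transcript holds, went from 21.0%, 13.2% and 21.6% to 63.9%, 43.8% and 53.5%. In depleted cells it went from 26.8%, 29.7% and 27.3% to 51.3%, 43.9% and 55.9%. Treated and untreated groups did not overlap, and control and depleted cells with Cisplatin did. The log2 odds rose by 2.28 (standard error 0.36, adjusted p = 5.0e-07) in control and 1.55 (standard error 0.33, adjusted p = 2.8e-04) in depleted cells. A further event of this exon, with another downstream exon, rose by 27.9 and 22.1 points. WNK1 mRNA fell with Cisplatin in control cells by −0.51 (adjusted p = 0.00140).

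The VCAN exon of 2961 nt (chr5:82815168-82818128) fell from 76.1%, 96.3% and 82.0% to 45.4%, 72.6% and 49.4% (log2 odds −2.79, standard error 0.65, adjusted p = 0.00765). VCAN, which encodes the matrix proteoglycan versican, was not named by the rule, which takes only the event of an exon with the most reads, another one here, and was chosen after its values were seen, to complete the 3 large changes. In depleted cells it differed by −45.8 points (adjusted p = 0.399). Large changes numbered 1 without library b of untreated control cells, without library a of Cisplatin-treated control cells or without library c of the latter.

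Further rises with Cisplatin in control cells were found in FTSJ2, which encodes a mitochondrial rRNA methyltransferase, RFFL, a ubiquitin ligase, ZNHIT1, a subunit of a chromatin remodelling complex, BPGM, an enzyme of glycolysis, and FOXK2, a forkhead transcription factor. The FTSJ2 exon of 923 nt (chr7:2277650-2278572), of the decay class, went from 22.8%, 19.9% and 22.4% to 40.8%, 36.1% and 43.9% in control cells and from 25.1%, 27.5% and 22.3% to 48.0%, 45.6% and 49.1% in depleted cells. It did not overlap between treated and untreated libraries (log2 odds 1.22 and 1.64, adjusted p = 0.0251 and 3.4e-06). RFFL rose by 15.4 points (adjusted p = 0.0393), ZNHIT1 by 6.29 (adjusted p = 5.2e-04), BPGM by 4.75 (adjusted p = 0.0345) and FOXK2 by 4.51 (adjusted p = 0.0306). The RFFL rise rests on few skipping reads, 22, 22 and 24 without and 4, 3 and 6 with Cisplatin. That of BPGM rests on few inclusion reads, 3, 2 and 6 without and 17, 21 and 27 with Cisplatin. The FOXK2 exon of 410 nt rose further in depleted cells, from 3.02%, 3.08% and 3.68% to 15.2%, 16.3% and 14.1% (adjusted p = 3.5e-12).

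Falls with Cisplatin in control cells were named in POP5, a subunit of RNase P, by −9.74 points (adjusted p = 0.0423) and in RAP1B, a small GTPase, by −5.44 points (adjusted p = 0.0182). Both were lost with 1 scale per library, as was FOXK2. The POP5 fall rests on few skipping reads, 2, 0 and 6 without and 13, 12 and 17 with Cisplatin. Of the 13 named calls of this comparison 5 were kept with any library left out, in WNK1, SRSF3, SRSF7 and both versions of the TRA2A exon.

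Cisplatin in depleted cells gave the largest differences. The exon of 397 nt in ANK1, which encodes the membrane adaptor ankyrin, was at 36.0%, 36.3% and 40.2% in untreated and at 100%, 81.8% and 86.1% in treated depleted cells (adjusted p = 0.00171), but on 6, 7 and 8 against 0, 3 and 2 skipping reads. The 82 inclusion reads of the library without a skipping read would give 80.8% with 3 of them. In control cells ANK1 stood at 66%, 100% and 76.3% without and 85.3%, 69.0% and 90.2% with Cisplatin, on 12 to 179 inclusion reads. The library at 100%, with 12 inclusion reads and none of skipping, would stand at 38.0% with 3 skipping reads, within the range of untreated depleted cells. ANK1 mRNA rose by 1.41 (adjusted p = 0.00174).

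The ZNF707 exon of 640 nt went from 39.8%, 38.0% and 41.4% to 79.5%, 76.1% and 80.2% (log2 odds 2.68, standard error 0.53, adjusted p = 7.2e-05), and ZNF707 mRNA rose by 1.73 (adjusted p = 1.0e-07). The ZNF707 skipping reads did not fall, with 13, 14 and 9 in untreated and 14, 16 and 12 in treated depleted cells. Its inclusion reads went from 85, 85 and 63 to 537, 505 and 482. The PLEC exon of 3381 nt went from 45.8%, 53.9% and 45.6% to 85.6%, 73.7% and 85.5% (log2 odds 2.40, standard error 0.33, adjusted p = 1.8e-10). Neither pair of groups overlapped. In control cells ZNF707 stood at means of 44.6% and 66.5% and PLEC at 45.6% and 65.7% without and with Cisplatin, differences that did not pass (adjusted p = 0.714 and 0.181).

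WIZ, a zinc finger protein that acts with histone methyltransferases, has an exon of 399 nt (chr19:15538921-15539319) that went from 33.2%, 29.9% and 26.1% to 57.8%, 58.6% and 68.8% (log2 odds 2.12, standard error 0.39, adjusted p = 1.3e-05). The DEDD2 exon of 366 nt (chr19:42720832-42721197), in a gene for a death effector domain protein, went from 32.4%, 39.7% and 28.6% to 55.1%, 61.3% and 63% (log2 odds 1.75, standard error 0.32, adjusted p = 1.1e-05). Both exons have lengths that are multiples of 3 and a frame without stop codons. In control cells WIZ rose by 21.5 and DEDD2 by 16.6 points without passing (adjusted p = 0.479 and 0.566).

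The TSSC4 exon went from 12.4%, 8.47% and 9.04% to 31.8%, 27.3% and 43.1% (log2 odds 2.42, standard error 0.31, adjusted p = 8.3e-12), while it stood at 9.83%, 9.04% and 9.04% without and 12.3%, 13.2% and 21.2% with Cisplatin in control cells. TMEM180, DTYMK and the noncoding RNA gene PVT1 had rises of 31.4, 23.8 and 23.2 points (adjusted p = 0.0322, 0.00948 and 0.0297). TMEM180 stood at a mean of 44.7% in untreated depleted cells, below each of the other groups (76.1% to 85.5%). It had few skipping reads, 10, 18 and 15 in untreated and 5, 4 and 5 in treated depleted cells. The calls of TMEM180 and PVT1 were lost with 1 scale per library and in every fit with a library left out. ANXA11, which encodes an annexin, rose by 25.6 points (adjusted p = 2.2e-07) and TROVE2, an RNA-binding autoantigen, fell by 25.2 points (adjusted p = 0.00821). For both exons the rule takes another event, with more reads, so these were chosen after their values were seen, to complete the large changes.

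Among the falls named by the rule, the exon of 423 nt in the noncoding RNA gene CTC-459F4.3 (chr19:28288662-28289084) went from 90.8%, 90.9% and 85.8% to 63.9%, 70.3% and 59.4% (adjusted p = 0.00854). TCF25 (exon of 979 nt, chr16:89970526-89971504) had 1, 1 and 0 skipping reads in untreated and 19, 7 and 15 in treated depleted cells (adjusted p = 7.0e-04), and GPS2, a subunit of a corepressor complex (exon of 421 nt, chr17:7216887-7217307), had 0 and then 4, 4 and 12 (adjusted p = 0.00821). Both exons overlap a measured retained intron, as did the HNRNPH3, EIF4G2 and POP5 exons. MTERFD1 fell by 9.44 points (adjusted p = 0.0291). Of the 23 named calls 12 were kept with any library left out.

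The comparisons of Cisplatin in control and in depleted cells share no library. Of the 1732 long events tested in both, 22 changed in control cells, 92 in depleted cells and 17 in both, all in the same direction. These are 77.3% of the first and 18.5% of the second. Of the shorter exons 134 events changed in both, which is 64.4% of 208 and 13.1% of 1022. All 22 events changed in control cells differed in the same direction in depleted cells, and 83 of the 92 in depleted cells did so in control cells. For the shorter exons this held for 201 of 208 and 947 of 1022. For depletion, 1702 long events were tested at both levels of the drug, of which 6 and 47 changed. Those in BTBD2, NDUFV1 and SNRNP70, 3 of the 6 and 6.38% of the 47, changed in both, and all 3 rose. Of the shorter exons 25 events changed in both, which is 52.1% of 48 and 6.78% of 369.

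**Figure D5:**
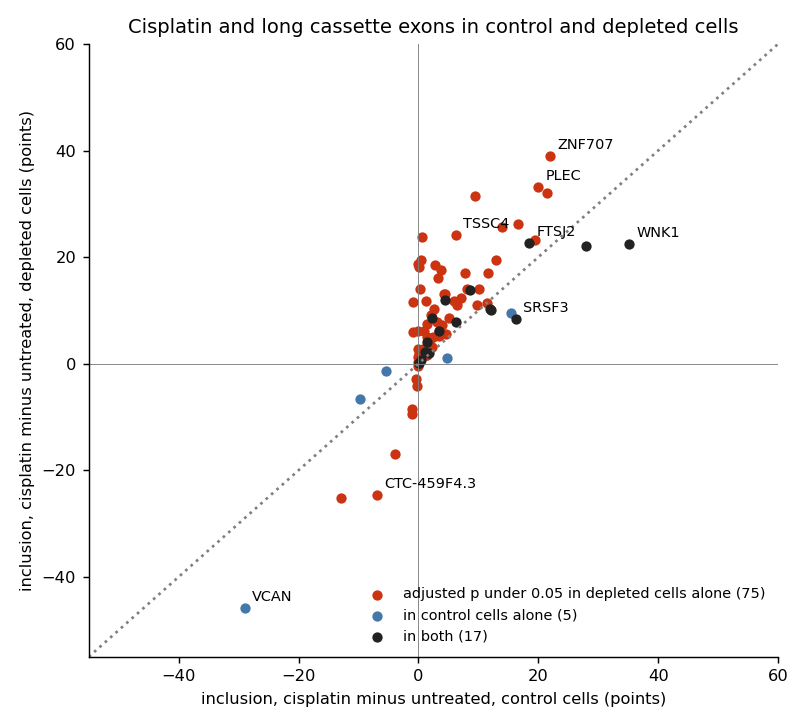
Difference in mean inclusion with Cisplatin (percentage points, treated minus untreated) in control cells (x axis) and depleted cells (y axis) for the 97 long events tested in both and at an adjusted p under 0.05 in either or both. The dotted line marks equal differences, 17 events passed in both kinds of cells, 75 in depleted cells alone and 5 in control cells alone.

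Whether the response to Cisplatin differed between depleted and control cells was tested by an interaction term over all 12 libraries. Of 1942 long events 6 had an adjusted p under 0.05, as had 27 of all 40856 events (0.0661%). An unadjusted p under 0.05 was found for 158 long events and for 2282 of all events. The CSNK1D exon rose in depleted cells, from a mean of 10.5% to 22.1%, and stood at 9.39% without and 8.44% with Cisplatin in control cells. For SRSF3 the rise was smaller in depleted than in control cells. DESeq2 and limma voom called none of the long events. For every other exon above, a call in one kind of cells and none in the other is not a test of the difference. The count of 6 went down to 1 without library a of untreated control or library c of Cisplatin-treated depleted cells, to 2 without library b and 3 without library a of untreated depleted cells, and to 3 without library c of untreated control cells.

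The inclusion test does not use the level of the host gene. Gene counts can, however, include the reads within a long exon, so they are not independent of its inclusion reads. The part of such shared reads was not tested. Of the 1746, 1741, 1745 and 1750 host genes of long exons tested, 96.2% to 96.4% had gene counts that passed the filter. At an adjusted p under 0.05 and at least 2-fold, 43 (2.55%) were called with depletion in untreated cells, against 8.66% of all genes, and 56 (3.34%) with depletion in Cisplatin-treated cells, against 12.3%. With Cisplatin 172 (10.2%) were called in control cells, against 19.8%, and 208 (12.3%) in depleted cells, against 23.1%. Host genes had to hold an event with at least 20 reads in each of 6 libraries, a limit not set for all genes. The part of this limit in the lower shares was not tested. Genes with a changed long exon were called in 0 of 7, 1 of 50, 0 of 20 and 9 of 87 cases. The 1 gene was PLEC, with a log2 fold change of 1.03, and of the 9 genes 5 rose and 4 fell, between −1.61 for MAPKAP1, a subunit of the mTORC2 kinase complex, and 1.73 for ZNF707. At an adjusted p under 0.05 alone, 28 of the 87 genes rose and 31 fell with Cisplatin in depleted cells.

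The longest members had too few skipping reads to show a change. MUC5B, which encodes a mucin, has an exon of 10893 nt, MKI67, the proliferation marker Ki-67, one of 6845 nt, SRRM2, a protein of nuclear speckles, one of 6701 nt, ANKRD11, a chromatin regulator, one of 6578 nt and HIVEP1, a zinc finger protein, one of 5981 nt. Their mean inclusion was 96.4% to 100% in each group tested, on 0 to 5 skipping reads per library, with differences of −3.61 to 1.81 points, and none of the 12 tests had an adjusted p under 0.05.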

How the data were processed

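The authors removed reads of rRNA, tRNA and mitochondrial sequence, trimmed the rest and aligned them to hg19 with STAR 2.5.2b. They deposited raw read counts per gene, and rMATS tables with raw counts of inclusion and skipping reads per event and library, beside their p-values and inclusion differences, which were not used. Duplicate rows were merged, events with under 20 reads in a library were dropped, and inclusion was recomputed. Events were tested with edgeR 4.0.16 (R 4.3.3), with terms for library, form, and form by group, and separate TMM scales for inclusion and skipping reads. Host genes were tested with edgeR on counts of the gene's strand in all 12 libraries. DESeq2 1.42.0, limma voom 3.58.1, other filters, scalings and lengths and leaving out each library were alternatives, and a single scale for both kinds of reads was added after the data were seen. Both tests were run on simulated data first. Exons named, by their event with the most reads, were the 10 largest rises and falls per comparison with an adjusted p under 0.05 and no overlap of groups, changed exons of splicing and DNA repair genes, the longest, and those next to 300 nt. Members, lists and rule were chosen with earlier results of these data known. Sequence and annotation came from GRCh37 and Gencode v44. Replicate numbers of the labels paired the control libraries without and with Cisplatin, whose gene counts deviated together (correlations 0.637, 0.733 and 0.475), and no other pair of groups for all 3 numbers.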

Additional observations from a re-analysis of the deposited data

Results flagged for a closer look

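For 6 long exons the change with Cisplatin differed between depleted and control cells, by the interaction term of edgeR's quasi-likelihood test over all 12 libraries with adjustment over 40856 events. In each case the values of every library are given in the order a, b, c. NACA, SRRT, BSG and NHP2L1 were not named by the rule and were chosen for this test. With 1 of the 12 libraries left out at a time, the call was lost in 1 fit for NACA (highest adjusted p = 0.0508), 2 for NHP2L1 (0.162), 5 for CSNK1D (0.276), 6 for BSG (0.191), 8 for SRSF3 (0.593) and 9 for SRRT (0.662), and no call was made by DESeq2 or limma voom.

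The SRSF3 exon of 456 nt was the one whose rise was smaller in depleted cells, with an interaction of −1.49 on the log2 odds scale (standard error 0.35, adjusted p = 0.0282). It went from 1.67%, 1.97% and 1.41% to 11.5%, 27.0% and 15.2% in control cells and from 4.86%, 4.47% and 3.50% to 13.8%, 13.7% and 10.6% in depleted cells.

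The CSNK1D exon of 482 nt had an interaction of 1.86 (standard error 0.40, adjusted p = 0.00867). It was at 13.0%, 6.68% and 8.49% without and 7.17%, 6.16% and 12% with Cisplatin in control cells, which overlapped, and at 9.96%, 8.73% and 12.7% without and 22.4%, 18.7% and 25.1% with it in depleted cells, which did not.

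The NHP2L1 exon of 606 nt, in the gene of a protein of the U4/U6.U5 particle, had an interaction of 2.60 (standard error 0.51, adjusted p = 0.00155). It was at 0.482%, 0.268% and 0.273% in untreated control, 0.373%, 0.649% and 0.412% in Cisplatin-treated control, 0.207%, 0.184% and 0.272% in untreated depleted and 1.23%, 0.906% and 2.23% in Cisplatin-treated depleted cells. The last group lay above the other 3.

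The NACA exon of 5589 nt, in the gene of the alpha subunit of the nascent polypeptide complex, had an interaction of 1.78 (standard error 0.35, adjusted p = 0.00169) at levels far below 1%. It was at 0.0285%, 0.0243% and 0.0379% without and 0.0524%, 0.0585% and 0.0832% with Cisplatin in control cells, and at 0.0433%, 0.0551% and 0.0375% without and 0.259%, 0.228% and 0.255% with it in depleted cells.

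The BSG exon of 348 nt, in the gene of the membrane glycoprotein basigin, had an interaction of 2.52 (standard error 0.56, adjusted p = 0.0138). It was at 0.101%, 0.130% and 0.0971% without and 0.0624%, 0.181% and 0.0979% with Cisplatin in control cells, and at 0.132%, 0.0668% and 0.0722% without and 0.371%, 0.409% and 0.446% with it in depleted cells.

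The SRRT exon of 326 nt, in the gene of ARS2, a partner of the nuclear cap-binding complex, had an interaction of 1.90 (standard error 0.44, adjusted p = 0.0282). It was at 4.99%, 3.89% and 5.58% without and 4.45%, 3.56% and 3.74% with Cisplatin in control cells, and at 5.66%, 5.14% and 4.42% without and 9.88%, 8.76% and 14.3% with it in depleted cells. The 5 exons other than that of SRSF3 had positive interactions. Of the read pairs of Cisplatin-treated depleted cells 21.8% to 22.6% were not counted for any gene, above the 14% to 18.9% of the other groups. The part of this in the result was not tested.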

How the results depend on the processing

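The large changes of long exons numbered 0, 4, 3 and 15 in the order of comparisons used above. The interaction, counted at an adjusted p under 0.05 with no limit on the difference, had 6. With a limit of 10 points in place of 20 they numbered 2, 14, 9 and 44, and with no limit 7, 54, 23 and 99. Over 200 nt there were 1, 12, 8 and 41. Over 500 nt depletion in Cisplatin-treated cells had 2 of up to 1000 nt and 1 of over 1000 nt. Cisplatin had 1 over 500 nt in control and 5 in depleted cells. Limma voom gave 1, 0 and 8 and DESeq2 1, 0 and 8 for the last 3 comparisons, and both gave 0 for the interaction. With 1 event per exon Cisplatin in control cells had 1. Leaving out 1 library at a time gave 0 to 1, 0 to 7, 1 to 4, 9 to 14 and 1 to 7. The causes of these changes were not tested. None of 68 named results reversed, and of 62 calls 53 were kept with 1 scale per library, 57 with total reads in place of TMM, 21 by limma voom, 15 by DESeq2, 26 with each library left out and 10 in all of these.

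No paired analysis of splicing was made because the splicing tables do not name the libraries of a group. The splicing test of Cisplatin in control cells thus leaves out the pairing that gene counts showed for these libraries. For the host genes, the fit with the replicate number as a block called 43, 57, 173 and 210, and 175 for control cells alone, where the numbers paired the libraries, against 43, 56, 172 and 208 without the block. This changed no count by over 1.5 times. Leaving out 1 library at a time gave 40 to 51, 49 to 61, 171 to 182 and 177 to 222.

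Reads of the skipped form were 2.83% to 3.14% of all reads of long events per library, so few reads bear on a change of an exon near full inclusion. The p-values cover the spread between these 3 libraries per group.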
